A study of Mus musculus with 28 samples.

Results

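The 9 genes described here encode transcription factors of epithelia: the ETS factors Ehf, Elf3, Elf5 and Spdef, the grainyhead-like factors Grhl1, Grhl2 and Grhl3, and the zinc-finger factors Ovol1 and Ovol2. They were chosen by name and matched by symbol to the identifiers of the count files, and all 9 of 9 were found among 56748 genes. The libraries came from a pair of mouse mammary lines. HC11 is an untransformed, clonal mammary epithelial line used to study lactogenic differentiation, and 4T1 is a line from a mouse mammary cancer. There were 10 HC11 libraries labelled DOX, 10 HC11 libraries labelled DOX + DIP, and 8 4T1 libraries labelled DOX. DOX is thus common to all 3 groups. The labels spell out neither agent and give no dose or time, and DIP is the usual shorthand in HC11 culture for dexamethasone, insulin and prolactin. Each group is 1 line, so a difference between 4T1 and HC11 is one between these lines. The title of the series places the work in lactogenic differentiation and breast cancer.

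ETS factors bind DNA around a GGA core. Ehf, Elf3, Elf5 and Spdef form the branch of the family that is largely restricted to epithelia, and Elf5 is known in the mammary gland for its part in forming the milk-producing alveolar cells downstream of prolactin. Grainyhead-like factors bind as dimers and switch on genes of cell junctions and of the epidermal barrier, among them those for E-cadherin and claudins. OVOL factors are mainly repressors that hold down Zeb1 and other drivers of epithelial-mesenchymal transition (EMT), the change by which epithelial cells lose their junctions. Factors of the Zeb and Snai families repress epithelial genes in turn.

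Libraries held 134117581 to 222065843 counts, so that a count of 0 allowed at most 0.0132 to 0.0206 CPM (a count scaled to the TMM-adjusted total of its library), at 3 counts and for counting error only. Of 9 epithelial identity markers, none was at 0 in any group, and their summed level ran from 3593 to 8096 CPM in HC11 DOX, from 481 to 2424 CPM in DOX + DIP libraries and from 3047 to 4347 CPM in 4T1. Markers of endothelium summed to at most 5.36 CPM and those of leukocytes to at most 27.4 CPM in any library. Those of adipocytes, 5 genes, summed to between 0.226 and 5.26 CPM in HC11 DOX, 0.631 and 124 CPM with DIP and 0.153 and 0.442 CPM in 4T1. Fabp4 alone reached 124 CPM with DIP. The 7 fibroblast markers summed to between 38.2 and 101 CPM in HC11 DOX, between 20.9 and 266 CPM with DIP and between 9.50 and 15.7 CPM in 4T1. In bulk RNA, fewer cells of a type and less RNA per cell cannot be told apart. Libraries 8 and 10 of the DOX + DIP group stood apart from the other 8: the glucocorticoid-induced gene Tsc22d3 was at 35.3 and 48.0 CPM there and at 241 to 435 CPM in the other 8, against 13.1 to 28.8 CPM with DOX alone. Other genes of that pair were unlike those of DOX libraries. Mki67 was at 8.81 and 10.1 CPM, against at least 88.6 CPM with DOX, and Per1 at 115 and 117 CPM, against at most 45.3 CPM. Krt5 was at 58.6 and 89.1 CPM, below the other 8 (323 to 814 CPM) and every DOX library (at least 1585 CPM). In 4T1 libraries 1 and 2, the basal keratin Krt5 was at 2.08% and 3.14% of its mean in HC11 DOX, against at most 0.806% in the other 4T1 libraries. Differences between groups are also given without these libraries where leaving out either pair changed a call or a direction, or moved a fold change by over 1.5 times.

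Promoters of members are shown so that the binding motifs of the families can be read in them. RefSeq (GRCm38.p6) gave promoters for 6 of the 9 members, in 8 entries, and each sequence covers the 250 bases before the start of the gene. For Elf5 and Grhl1, the first of the listed promoters is shown. Capitals mark CACCTG, which is the E-box CAGGTG, bound by Snai and Zeb factors, read on the other strand. In Spdef they mark the ETS core AGGAAG and TGTTCT. The latter is AGAACA, a half-site of the glucocorticoid receptor (a part of its full motif), read on the other strand.
Elf3 (chr1:135258473-135258722, minus strand): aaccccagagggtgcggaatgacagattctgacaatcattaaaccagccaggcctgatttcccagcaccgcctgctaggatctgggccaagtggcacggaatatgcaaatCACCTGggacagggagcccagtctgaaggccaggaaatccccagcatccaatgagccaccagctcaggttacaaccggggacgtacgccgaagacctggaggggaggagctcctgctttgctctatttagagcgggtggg
Elf5, first of its promoters (chr2:103411848-103412097, plus strand): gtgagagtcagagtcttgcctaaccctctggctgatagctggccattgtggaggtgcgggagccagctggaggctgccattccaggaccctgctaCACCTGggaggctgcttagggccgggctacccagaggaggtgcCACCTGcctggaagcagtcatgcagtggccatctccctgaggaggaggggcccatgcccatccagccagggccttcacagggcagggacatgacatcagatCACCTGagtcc
Spdef (chr17:27728952-27729201, minus strand): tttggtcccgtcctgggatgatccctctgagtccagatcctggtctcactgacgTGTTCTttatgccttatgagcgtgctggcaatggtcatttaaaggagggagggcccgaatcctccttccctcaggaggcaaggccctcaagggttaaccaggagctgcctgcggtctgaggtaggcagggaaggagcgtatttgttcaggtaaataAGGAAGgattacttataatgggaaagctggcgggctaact
Grhl1, first of its promoters (chr12:24572037-24572286, plus strand): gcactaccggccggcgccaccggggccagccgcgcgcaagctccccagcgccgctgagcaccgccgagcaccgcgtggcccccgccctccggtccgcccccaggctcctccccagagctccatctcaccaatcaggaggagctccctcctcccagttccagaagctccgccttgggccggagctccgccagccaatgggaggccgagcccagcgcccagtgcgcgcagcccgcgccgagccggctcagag
Grhl3 (chr4:135573633-135573882, minus strand): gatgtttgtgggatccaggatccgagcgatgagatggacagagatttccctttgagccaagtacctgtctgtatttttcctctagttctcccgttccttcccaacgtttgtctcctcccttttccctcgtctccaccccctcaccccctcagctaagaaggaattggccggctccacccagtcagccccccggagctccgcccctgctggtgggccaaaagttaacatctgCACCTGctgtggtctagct
Ovol2 (chr2:144331363-144331612, minus strand): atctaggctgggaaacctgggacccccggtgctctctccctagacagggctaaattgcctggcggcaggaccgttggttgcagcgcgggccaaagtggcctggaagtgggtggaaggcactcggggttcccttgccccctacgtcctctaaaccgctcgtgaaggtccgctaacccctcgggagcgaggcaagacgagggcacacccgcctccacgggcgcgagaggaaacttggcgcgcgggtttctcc

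The E-box CAGGTG, searched on both strands, was found 3 times in the first Elf5 promoter and once each in those of Elf3 and Grhl3, and 17.2% of 32851 promoters of the same length held it at least once. The motif was added after these promoters had been read. The last of the Elf5 matches lay 11 to 6 bases before the start, and the Grhl3 match 19 to 14 bases before it. In the Grhl1 and Ovol2 promoters shown, none of the 7 motifs searched was found. These were the E-box, the grainyhead motif AACCGGTT (in 0.116% of all promoters), the OVOL motif CCGTTA (2.18%), the ETS motif CCGGAAGT (2.88%), the ETS core AGGAAG (29.5%), the STAT motif TTCNNNGAA (7.02%) and the glucocorticoid receptor half-site AGAACA (16.1%). Besides the E-boxes, the 8 promoters held the ETS core once in Spdef and once in the second Grhl1 promoter, and the glucocorticoid receptor half-site once in Spdef. A match is a run of letters and shows no binding.

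Levels of different genes were compared per kilobase (kb) of the longest annotated transcript. In HC11 with DOX, Grhl2 led at 13.0 ± 2.87 CPM per kb (SD, n = 10), followed by Elf3 at 11.1 ± 4.36, Grhl1 at 6.20 ± 1.69 and Ovol2 at 6.03 ± 0.933 CPM per kb. Ovol1 lay at 3.27 ± 0.689, Grhl3 at 1.87 ± 0.806, Ehf at 1.46 ± 0.756 and Elf5 at 0.544 ± 0.286 CPM per kb. Spdef came last at 0.0564 ± 0.0143 CPM per kb. Of the 8 steps in that order, those from Ovol2 to Ovol1 and from Elf5 to Spdef were between genes whose libraries did not overlap. The step from Grhl2 to Elf3 held in 8 of 10 libraries and that from Grhl1 to Ovol2 in 7 of 10.

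With DIP, Ehf moved from the seventh place to the first, at 21.6 ± 15.1 CPM per kb (SD, n = 10), above Grhl2 at 15.1 ± 1.56 and Grhl1 at 14.9 ± 6.15 CPM per kb. Ehf exceeded Grhl2 in 6 of the 10 libraries, and no pair of neighbours in the DOX + DIP order was free of overlap. In 4T1, Elf3 led at 6.97 ± 1.43 CPM per kb (SD, n = 8), then Grhl2 at 4.59 ± 0.554, Ovol1 at 1.52 ± 0.223 and Ovol2 at 0.570 ± 0.0865 CPM per kb. These first 4 did not overlap in 4T1. Grhl1 at 0.451 ± 0.115, Grhl3 at 0.315 ± 0.129 and Ehf at 0.103 ± 0.0739 CPM per kb followed, and Elf5 and Spdef were lowest, at 0.0109 ± 0.00792 and 0.00626 ± 0.00461 CPM per kb.

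**Figure D1:**
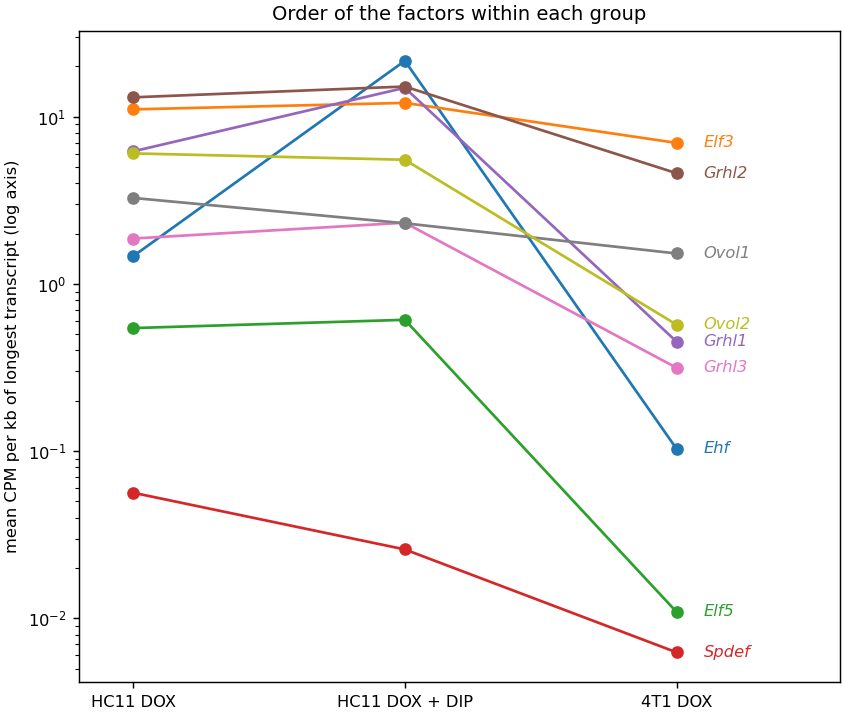
Mean level of each of the 9 factors in the 3 groups, in CPM per kb of the longest transcript on a log axis, with lines joining the means of 1 gene. Ehf rises from 1.46 to 21.6 between HC11 DOX and DOX + DIP and lies at 0.103 in 4T1, while Elf3 and Grhl2 stay among the first 4 in each group.

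The comparison of DOX + DIP with DOX in HC11 asks how the hormone mix of lactogenic differentiation bears on these factors. Ehf and Grhl1 rose, Spdef fell from a very low level, and the other 6 did not pass the test over all 20 libraries. The 2 rises among 9 stand beside 24.5% of all 23829 genes tested that rose, and the 1 fall beside 21% that fell. In all, 45.5% of genes tested were called at an adjusted p under 0.05. In none of the 9 did the libraries of the groups fail to overlap, against 11.4% of all genes tested. For Ehf and Grhl1 the overlap came from libraries 8 and 10 alone, and the other 8 libraries with DIP all lay above every DOX library.

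Ehf, an ETS factor of ductal and secretory epithelia, lay between 2.63 and 11.6 CPM in the DOX libraries, with a median of 5.24. With DIP it ran from 3.03 to 195 CPM, with a median of 97.6. The lowest values were those of library 8, at 3.03, and library 10, at 3.70 CPM, both within the DOX range, and the other 8 held 51.6 to 195 CPM. Ehf rose by 3.91 ± 0.59 (SE) on the log2 scale, or 15.0-fold, at an adjusted p of 1.48e-05 by edgeR, and by 4.21 ± 0.35 without libraries 8 and 10, at 5.72e-09.

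Elf3, an ETS factor induced by stress and by differentiation in many epithelia, ranged from 14.2 to 36.1 CPM with DOX (median 19.3) and from 18.5 to 40.2 CPM with DIP (median 23.8). The ranges overlapped and libraries 8 and 10 lay inside that of the other 8. Its log2 fold change of 0.15 ± 0.20 (SE) had an adjusted p of 0.565, with a 95% interval from -0.27 to 0.58.

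Elf5, the alveolar ETS factor, ranged from 0.604 to 3.10 CPM with DOX (median 1.58) and from 0.0544 to 5.41 CPM with DIP (median 1.35). The highest DIP values were those of libraries 7 and 9, at 5.41 and 5.14 CPM, and the lowest those of libraries 8 and 10, at 0.145 and 0.0544 CPM, below every DOX library. Its log2 fold change was 0.19 ± 0.55 (SE) at an adjusted p of 0.807, and 0.49 ± 0.40 at 0.318 without libraries 8 and 10. The 95% interval over all libraries, from -0.96 to 1.35, leaves room for a change of over 2-fold upward.

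Spdef, an ETS factor of goblet and other secretory cells, was near the limit of detection, at 12 to 26 counts per library with DOX alone and 2 to 31 counts after DIP was added. In CPM these were 0.0661 to 0.156 (median 0.109) and 0.0107 to 0.174 (median 0.0261), so the groups overlapped. The log2 fold change was -1.08 ± 0.42 (SE) at an adjusted p of 0.0392. That call was lost without libraries 8 and 10 (-0.87 ± 0.41, adjusted p = 0.0826) and without a filter on low counts (adjusted p = 0.0568). Leaving out 1 library ended it in 11 of 20 cases.

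Among the grainyhead-like factors, Grhl1, which acts on desmosomal genes of the skin, lay between 15.0 and 32.8 CPM with DOX (median 21.2) and between 25.3 and 88.4 CPM with DIP (median 49.3). Libraries 8 and 10, at 26.5 and 25.3 CPM, were the lowest of the DIP group and the others began at 35.1 CPM, above the highest DOX value. Grhl1 rose by 1.29 ± 0.22 (SE) on the log2 scale, or 2.44-fold, at an adjusted p of 5.84e-05. Without the pair the log2 fold change was 1.45 ± 0.18, at 1.80e-06.

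Grhl2, which maintains E-cadherin and claudin genes, ranged from 50.7 to 90.2 CPM with DOX (median 56.9) and from 65.8 to 89.3 CPM with DIP (median 72.6). The DIP libraries lay inside the upper part of the DOX range. The log2 fold change of 0.24 ± 0.11 (SE) had an adjusted p of 0.0918 by edgeR. It passed by DESeq2, at 0.0499, and by edgeR without DOX library 3, at 0.0374, or without DOX library 5, at 0.0224.

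Grhl3, a factor of the epidermal barrier and of wound closure, gave values on both sides of the DOX range. It lay between 2.86 and 9.39 CPM with DOX (median 4.48) and between 0.759 and 27.2 CPM with DIP (median 2.09). Libraries 8 and 10 held 24.7 and 27.2 CPM, above every DOX library, and the other 8 held 0.759 to 2.40 CPM, below every DOX library. Over all 20 libraries the log2 fold change was 0.33 ± 0.62 (SE) at an adjusted p of 0.703. Without libraries 8 and 10 the direction turned, to -1.68 ± 0.29 at an adjusted p of 5.88e-05.

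Of the OVOL factors, Ovol1 had the same arrangement of libraries as Grhl3. It lay between 6.77 and 12.8 CPM with DOX (median 9.47) and between 3.64 and 17.3 CPM with DIP (median 4.44). Libraries 8 and 10 held 15.1 and 17.3 CPM and the other 8 at most 6.05 CPM, below every DOX library. The log2 fold change was -0.48 ± 0.28 (SE) at an adjusted p of 0.168, and -1.09 ± 0.14 at 1.47e-06 without the pair. Leaving out either library alone brought the adjusted p to 0.0344 (library 8) or 0.0131 (library 10), and limma voom on all libraries gave -0.71 at 0.0263.

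Ovol2, which is needed for epithelial identity in the mammary gland and the cornea, ranged from 7.62 to 12.3 CPM with DOX (median 9.36) and from 6.07 to 13.9 CPM with DIP (median 8.09). Libraries 8 and 10 were again the highest, at 11.8 and 13.9 CPM, and the groups overlapped. Its log2 fold change was -0.10 ± 0.14 (SE) at an adjusted p of 0.591, and -0.30 ± 0.11 at 0.0227 without the pair.

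Without libraries 8 and 10, 2 of the 9 factors (Ehf and Grhl1) were higher with DIP and 3 (Grhl3, Ovol1 and Ovol2) lower, where 27% of 24427 genes tested rose, 25.4% fell and 52.4% were called in all. Only the grainyhead-like factors were called in opposite directions: Grhl1 rose while Grhl3 fell, and Grhl2 did not pass the test. Both OVOL factors fell. Of the ETS factors Ehf rose, and Elf3, Elf5 and Spdef did not pass. In libraries 8 and 10 themselves, 3 factors (Grhl3, Ovol1 and Ovol2) lay above the other 8, 3 (Ehf, Elf5 and Grhl1) below, and 3 (Elf3, Spdef and Grhl2) within. The share of all genes for which that pair lay outside the other 8 was not computed. These counts are therefore not read as particular to the factors. Beside these values, all 17 of 17 proliferation genes fell with DIP (median -4.19 on the log2 scale), and 12 of 14 glucocorticoid targets rose, with a median of 2.47, against a median of 0.06 over all genes tested. Of 6 fibroblast markers tested, 3 rose with DIP and 0 fell, Dcn by 3.36 on the log2 scale, and 4 rose without libraries 8 and 10. Col1a1 and Col1a2 had lower means with DIP, 21.1 and 1.94 CPM against 30.9 and 4.79 CPM, and did not pass. Over all libraries, 24.5% of all genes tested rose and 21% fell. The part of the proliferation, glucocorticoid and fibroblast genes in the changes of the factors was not tested.

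**Figure D2:**
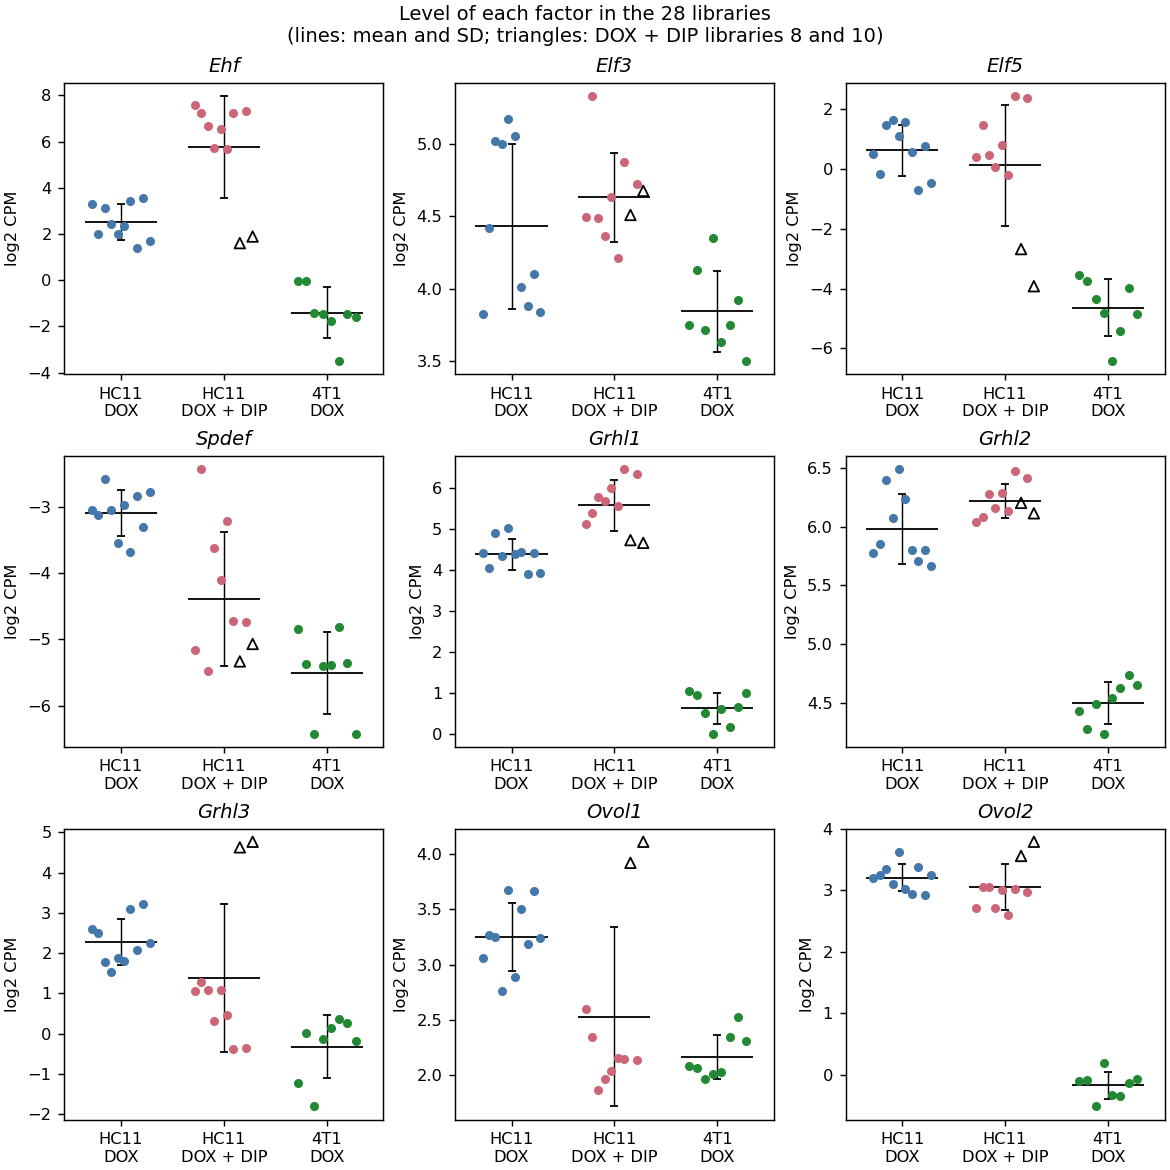
Level of each factor in log2 CPM (prior count 2) in every library, 1 point per library, with horizontal lines at the mean and bars of 1 SD over 10, 10 and 8 libraries. Triangles are DOX + DIP libraries 8 and 10, which lie low for Ehf, Elf5 and Grhl1 and high for Grhl3, Ovol1 and Ovol2.

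The HC11 DOX libraries also varied among themselves, and in the same arrangement for several factors. Libraries 3, 4, 5 and 6 held the 4 highest values of Elf3 (32.0 to 36.1 CPM, against at most 21.4 in the other 6), of Elf5 (2.15 to 3.10 CPM, against at most 1.68) and of Grhl2 (67.5 to 90.2 CPM, against at most 57.8). They held the 4 lowest values of Grhl3, 2.86 to 3.65 CPM, against at least 4.19 CPM in the others. Tfcp2l1, a relative of the grainyhead genes, was also higher in those 4, at 53.3 to 83.2 CPM against at most 24.4 CPM. Ehf followed another arrangement, with its highest values in libraries 9, 7 and 1, at 11.6, 10.8 and 9.85 CPM. The labels give no batch or culture that would set these libraries apart. How many of all genes split libraries 3, 4, 5 and 6 from the other 6 was not computed. The split is therefore not read as particular to the factors.

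Grhl3 showed the widest relative spread over the DOX + DIP libraries, with an SD of 159% of the mean, and Grhl2 the narrowest, at 10.3%. In 4T1 the corresponding range ran from 12.1% for Grhl2 to 73.6% for Spdef.

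The comparison of 4T1 with HC11, both with DOX, asks how the cancer line differs from the untransformed one. All 9 of 9 factors were lower in 4T1, where 35.6% of 23875 genes tested were lower, 34.3% higher and 69.9% called in all. For 8 of the 9 the libraries of the lines did not overlap, which was so for 36.8% of all genes tested. Elf3 was the exception. This comparison shares its HC11 DOX libraries with that of DIP, so the fold changes of both rest in part on the same values.

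Elf5 was lowest in relative terms. In 4T1 it ranged from 0 to 0.0748 CPM (median 0.0307), with 47 counts over all 8 libraries, while the lowest HC11 DOX library held 0.604 CPM. Relative to HC11 DOX, the log2 fold change was -5.63 ± 0.50 (SE) at an adjusted p of 4.17e-09. Libraries 1 and 2 held 23 of the 47 counts, at 4.22% and 3.55% of the HC11 DOX mean, against at most 2.88% in the others. Without them the log2 fold change was -6.13 ± 0.57 at an adjusted p of 3.07e-08. Library 5 held 0 counts, which allows up to 0.0182 CPM.

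Ehf ranged from 0.0771 to 0.978 CPM in 4T1 (median 0.351), all below the lowest HC11 DOX value of 2.63 CPM. The highest were libraries 2 and 1, at 0.978 and 0.973 CPM, and the other 6 did not exceed 0.357 CPM. The log2 fold change was -3.84 ± 0.44 (SE) at an adjusted p of 2.02e-07, and -4.48 ± 0.44 without those libraries. As a share of the HC11 DOX mean, Ehf stood at 14.9% and 15.0% in libraries 1 and 2 and at 1.18% to 5.45% in the others. Krt5 and Trp63, which are basal epithelial genes, were also highest in that pair, at 2.08% to 4.38% of their HC11 DOX means. The part of this in the Ehf and Elf5 values was not tested.

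Spdef was counted 16 times over the 8 libraries of 4T1, with 0 to 4 counts in each, against 12 to 26 in each HC11 DOX library. The log2 fold change was -3.09 ± 0.38 (SE) at an adjusted p of 5.15e-07. Elf3 kept the most of its HC11 level among the ETS members, at 11.3 to 20.4 CPM in 4T1 (median 13.5) against 14.2 to 36.1 CPM. Its log2 fold change was -0.68 ± 0.21 (SE), or 1.60-fold lower, at an adjusted p of 0.00694, and the ranges overlapped.

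Grhl1 lay between 0.988 and 2.06 CPM in 4T1 (median 1.53), against at least 15.0 CPM in HC11. Its log2 fold change was -3.78 ± 0.20 (SE), or 13.8-fold lower, at an adjusted p of 2.05e-12. Grhl2 fell less, with 18.8 to 26.6 CPM in 4T1 (median 22.8) against at least 50.7 CPM, a log2 fold change of -1.51 ± 0.13 (SE) at an adjusted p of 2.43e-09. Grhl3 lay between 0.275 and 1.28 CPM (median 0.951), below the lowest HC11 value of 2.86 CPM, with a log2 fold change of -2.57 ± 0.31 (SE) at 3.31e-07.

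The OVOL factors differed in size. Ovol2 lay between 0.688 and 1.12 CPM in 4T1 (median 0.905), far under the lowest HC11 DOX value of 7.62 CPM, and was 10.6-fold lower (log2 fold change -3.41 ± 0.13 (SE), adjusted p = 1.24e-14). Ovol1 lay between 3.89 and 5.76 CPM (median 4.20), just under the lowest HC11 DOX value of 6.77 CPM, and was 2.15-fold lower (-1.11 ± 0.13 (SE), adjusted p = 3.63e-07). The ratio of those falls was not itself tested.

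**Figure D3:**
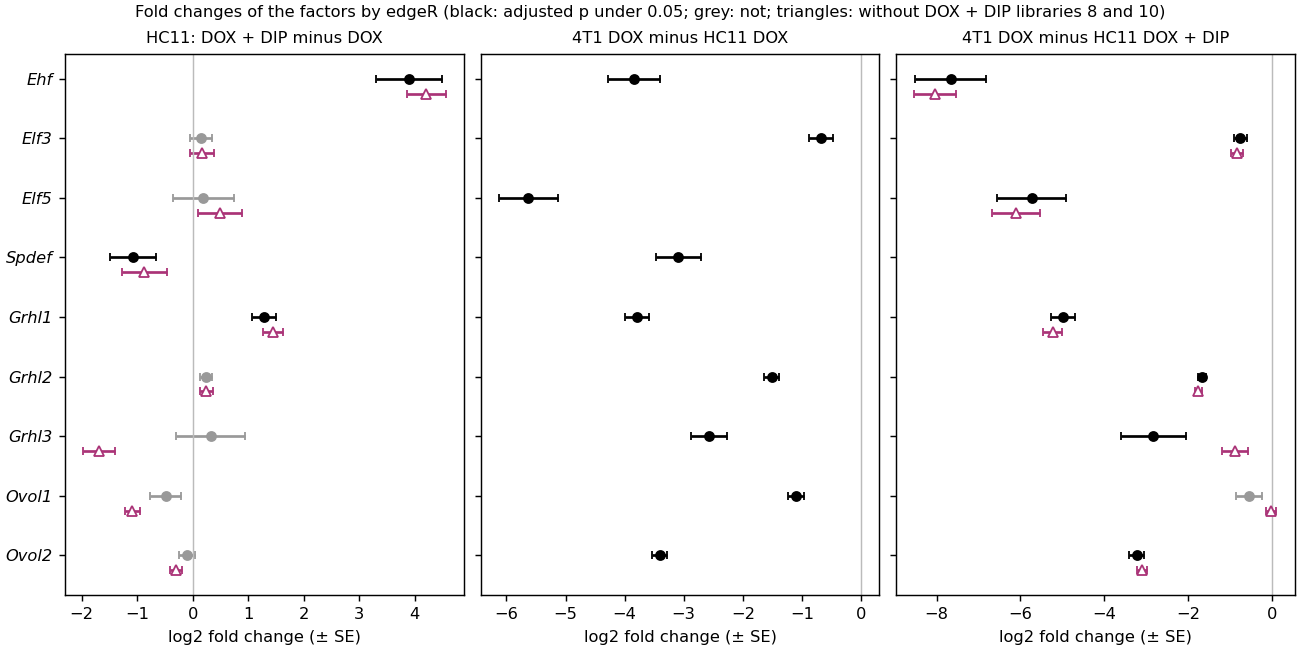
Log2 fold change of each factor by edgeR in the 3 comparisons, with bars of 1 SE; black points have an adjusted p under 0.05, grey ones do not, and triangles leave out DOX + DIP libraries 8 and 10. All 9 values lie below 0 in 4T1 against HC11 DOX, and Grhl3 crosses from 0.33 to -1.68 in the DIP comparison when the pair is left out.

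Against HC11 with DOX + DIP, where line and treatment differ together, 7 of the 8 factors tested were lower in 4T1, beside 37.9% of 24132 genes tested that were lower and 73.8% that were called. Spdef did not pass the filter on low counts there. The libraries did not overlap for Ehf, Grhl1, Grhl2 and Ovol2, against 39.6% of all genes tested. Ehf had the greatest distance of the 8, with a log2 fold change of -7.66 ± 0.85 (SE) at an adjusted p of 1.23e-07, and of -8.36 ± 0.98 without 4T1 libraries 1 and 2. Elf5 followed at -5.73 ± 0.83 (4.01e-06), then Grhl1 at -4.99 ± 0.28 (8.38e-12), Ovol2 at -3.22 ± 0.18 (5.76e-12), Grhl3 at -2.83 ± 0.77 (0.00281), Grhl2 at -1.67 ± 0.09 (6.95e-12) and Elf3 at -0.75 ± 0.15 (0.00013).

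Ovol1 did not pass in that comparison (-0.55 ± 0.31 (SE), adjusted p = 0.117). Without DOX + DIP libraries 8 and 10 its log2 fold change was -0.01 ± 0.12 at an adjusted p of 0.956, with means of 4.50 ± 0.759 CPM (SD, n = 8) in the remaining HC11 libraries and 4.52 ± 0.663 CPM (SD, n = 8) in 4T1. It passed over all libraries by DESeq2 (-0.65, 0.0475), with a filter of at least 1 CPM in 8 libraries (-0.70, 0.0468) and in 1 fit of all 3 groups (-0.60, 0.0432). Grhl3 depended on the pair in size: without them its log2 fold change was -0.88 ± 0.31 at an adjusted p of 0.0161.

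Over the 3 groups, Ehf and Grhl1 were thus highest in HC11 with DIP, intermediate with DOX and lowest in 4T1. For Elf3, Elf5, Grhl2 and Ovol2, the HC11 groups did not differ beyond their spread over all libraries and 4T1 was lower than both. For Ovol1 the neighbours that did not differ beyond their spread were HC11 with DOX and with DIP over all libraries, and 4T1 and HC11 with DIP.

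The opposing factors of EMT did not move as a group. Of the 7 listed, 1 fell with DIP (45.5% of all genes were called) and 3 rose and 2 fell in 4T1 against HC11 DOX (where 69.9% of all genes were called). Zeb1, the best known target of OVOL repression, spanned 0.0170 to 4.50 CPM in HC11 DOX. With DIP it spanned 0.0347 to 1.82 CPM, and in 4T1 0.887 to 1.77 CPM. Its log2 fold change was -0.71 ± 0.76 (SE, adjusted p = 0.473) with DIP and 0.04 ± 0.67 (adjusted p = 0.966) in 4T1. HC11 DOX libraries differed from each other more than 4T1 libraries did.

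Zeb2 lay between 0.119 and 0.550 CPM in HC11 DOX and between 15.7 and 21.9 CPM in 4T1, with no overlap and a rise of 6.0 ± 0.32 (SE) on the log2 scale at an adjusted p of 2.66e-12. Snai2 went the other way, from 26.0 to 65.3 CPM in HC11 DOX to between 0.154 and 1.98 CPM in 4T1 (-6.14 ± 0.45, adjusted p = 3.09e-10). It was highest there in libraries 2 and 1, and at -7.07 without them. Twist1 rose from a mean of 4.68 ± 1.11 CPM (SD, n = 10) to 15.35 ± 2.67 CPM (SD, n = 8), by 1.71 on the log2 scale at an adjusted p of 1.14e-09. Snai3 rose by 3.37 from under 0.2 CPM, and Twist2 fell by 3.20 at under 0.4 CPM throughout.

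Snai1 was the 1 factor of that list that fell with DIP, from 5.61 to 25.4 CPM with DOX to between 1.94 and 5.80 CPM (log2 fold change -1.91 ± 0.26 (SE), adjusted p = 4.02e-06). The ranges met only at the lowest DOX library. In 4T1 it lay at 14.1 to 17.5 CPM, within the HC11 DOX range, with a log2 fold change of 0.14 ± 0.22 at an adjusted p of 0.578. Without DOX + DIP libraries 8 and 10, Twist1 passed as well (0.34, adjusted p = 0.0432).

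**Figure D4:**
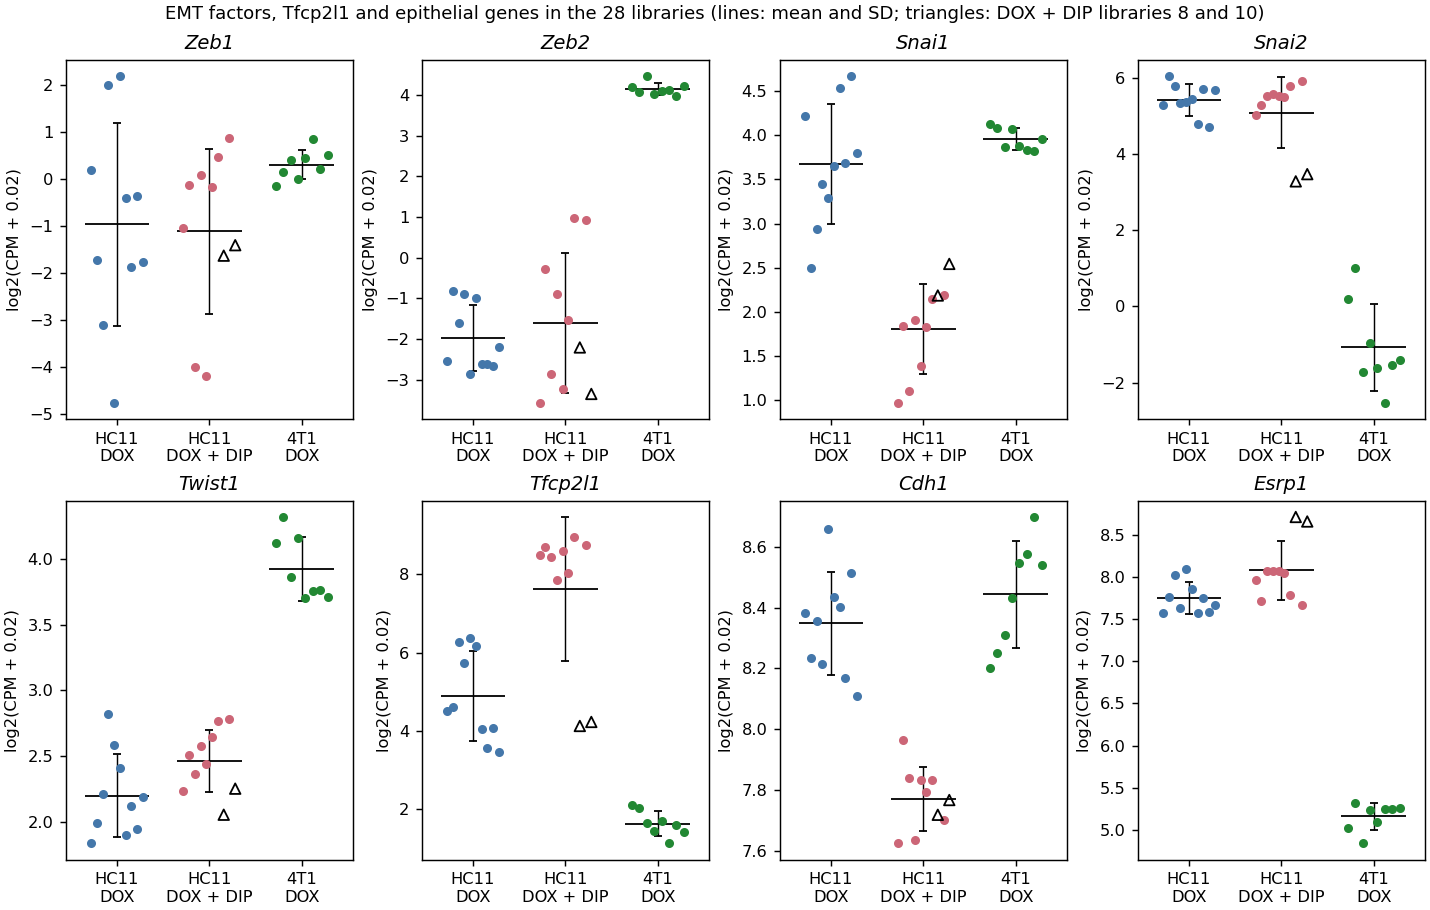
Level in log2(CPM + 0.02) of 5 EMT factors, of Tfcp2l1 and of the epithelial genes Cdh1 and Esrp1 in every library, with lines at the mean and bars of 1 SD; triangles are DOX + DIP libraries 8 and 10. Zeb2 and Twist1 are higher and Snai2 and Esrp1 lower in 4T1 than in every HC11 library, while Zeb1 overlaps among all 3 groups.

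Of 36 epithelial genes linked to these factors in earlier work, 34 were tested with DIP, of which 9 rose and 11 fell. Their median on the log2 scale was 0.10, against 0.06 over all genes tested, of which 24.5% rose and 21% fell. Without libraries 8 and 10 the counts were 13 and 12, beside 27% and 25.4% of all genes. Dsg1a, a desmosomal cadherin, fell by 1.98 on the log2 scale, from a mean of 6.19 ± 5.92 to 1.54 ± 0.742 CPM (SD, n = 10 each). Tgm1, the transglutaminase that crosslinks the cornified envelope and a known target of Grhl3, fell by 1.84, from 23.4 ± 9.56 to 6.40 ± 2.79 CPM, with no overlap. Within the DIP group it did not follow Grhl3. In libraries 8 and 10, where Grhl3 was highest, Tgm1 was lowest, at 1.83 and 2.46 CPM against 5.64 to 10.8 CPM in the others. Cldn4, a tight-junction claudin, rose by 1.43 at an adjusted p of 0.0134. The E-cadherin gene Cdh1, named after its values were seen, ran from 276 to 405 CPM with DOX and from 197 to 250 CPM with DIP, with no overlap. It fell by 0.56 ± 0.08 (SE) on the log2 scale at an adjusted p of 6.21e-06.

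In 4T1 against HC11 DOX, 33 of these 36 genes were tested, of which 7 rose and 21 fell. Their median on the log2 scale was -0.76, against -0.01 over all genes tested, of which 34.3% rose and 35.6% fell. The adaptor Ap1m2 fell by 6.29, and the epithelial GTPase Rab25 fell by 5.75 from 60.0 ± 7.28 CPM (SD, n = 10) to 1.13 ± 0.985 CPM (SD, n = 8). Both were highest in 4T1 libraries 1 and 2, at 2.66% to 5.39% of their HC11 DOX means, against at most 1.68% in the others, and without that pair the log2 fold changes were -7.26 and -6.53. Tight-junction Cldn7 rose by 8.78, from 0.179 ± 0.109 to 78.6 ± 9.94 CPM. Cdh1 did not pass: it lay at 294 to 415 CPM in 4T1, inside and just above its HC11 DOX range, with a log2 fold change of 0.09 ± 0.09 at an adjusted p of 0.354. Its level in 4T1 thus did not differ beyond the spread from that in HC11 DOX, while Grhl1, Grhl2, Ovol1 and Ovol2 were all lower.

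Other ETS genes moved in their own ways. Of 22 listed, 17 were tested. With DIP 1 rose and 8 fell (median log2 fold change -0.40), and in 4T1 6 rose and 6 fell (median 0.17). Over all genes tested, 24.5% rose and 21% fell with DIP, and 34.3% rose and 35.6% fell in 4T1. Without libraries 8 and 10, 2 rose and 7 fell with DIP. Etv4, a target of growth factor signalling, fell with DIP from 13.7 to 26.9 CPM to between 0.937 and 3.54 CPM (-3.19 ± 0.20 (SE), adjusted p = 4.97e-11). In 4T1 it lay at 85.9 to 116 CPM, above every HC11 library (2.31 ± 0.13, adjusted p = 7.32e-12). Elf4 had the same order, at 15.2 ± 2.53 CPM (SD, n = 10) with DOX, 6.20 ± 0.943 CPM (n = 10) with DIP and 42.2 ± 3.65 CPM (n = 8) in 4T1, with no overlap among the groups. Erf, a repressor of the family, fell by 1.16 with DIP, and Elk3 was higher in 4T1 by 2.24 on the log2 scale. Etv1 and Erg, whose mean level was below the cutoff for naming, differed more between the lines, with no overlap. Etv1 had a mean of 0.0797 CPM in HC11 DOX and 20.8 CPM in 4T1, and Erg of 4.34 and 0.0362 CPM. The groups of libraries thus stood in the reverse order for Etv4 and Elf4 from that for Ehf and Grhl1.

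Among the relatives of the grainyhead and OVOL genes, 3 of 4 were tested and Ovol3 was at most 0.0428 CPM in any library. Tfcp2l1, a factor of kidney ducts and pluripotent cells, ran from 10.96 to 83.2 CPM with DOX. With DIP it held 233 to 498 CPM in 8 libraries, and 17.4 and 18.7 CPM in libraries 8 and 10. It rose by 2.96 ± 0.56 (SE) on the log2 scale at an adjusted p of 1.91e-04, and by 3.26 ± 0.40 without that pair. In 4T1 it lay between 2.17 and 4.29 CPM, below every HC11 library (-3.64 ± 0.44, adjusted p = 3.53e-07). This is the order over the groups that Ehf had. Tfcp2 was lower in 4T1 by a log2 fold change of -1.15 and Ubp1 higher by 0.44.

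Of 18 genes linked to Elf5 and lactation, 9 were tested in each of these comparisons. With DIP 4 rose and 0 fell, and in 4T1 4 rose and 4 fell, beside 24.5% and 21% of all genes tested with DIP and 34.3% and 35.6% in 4T1. Without libraries 8 and 10, 5 rose with DIP, Fgfr2 among them (0.64, adjusted p = 0.0212, against 0.35 over all libraries). The milk genes Wap, Csn1s1, Csn1s2a, Csn2, Csn3, Lalba and Glycam1 did not pass the filter on low counts in HC11 and were at most 0.0758 CPM in any HC11 library. Jak2, the kinase of the prolactin receptor, rose with DIP by 1.31 ± 0.20 (SE) at an adjusted p of 1.28e-05, from 9.81 to 28.3 CPM to between 30.5 and 57.2 CPM. Stat5a, its downstream factor, rose by 0.97 at an adjusted p of 0.0343, which was lost by limma voom (0.118) and without a filter on low counts (0.0585). Leaving out 1 library ended the Stat5a call in 10 of 20 cases. Without libraries 8 and 10 together its log2 fold change was 1.23, at an adjusted p of 6.33e-04 by edgeR. Wfdc18, a secreted protein of the mammary gland, rose by 2.06 at an adjusted p of 0.0161, lost by limma voom (0.197). With DIP it was at 2.92 and 5.56 CPM in libraries 8 and 10, below every DOX library. The other 8 held 258 to 709 CPM, above every DOX library. Without that pair its log2 fold change was 2.37, at an adjusted p of 1.35e-04 by edgeR. In 4T1, Wfdc18 fell by 5.04, with a log2 fold change of -5.80 without libraries 1 and 2, where it was highest, and Fgfr2 by 2.90, and Gata3, a luminal factor, rose by 2.50 on the log2 scale.

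Likeness to each member was measured as the root mean square difference of log2 CPM over the 28 libraries, after each gene's own mean was subtracted, among 15320 genes. It is a description, and the values of all genes share libraries and groups. Ehf was most like Adgrg2 (0.756) and Cited4 (0.772), for which the median over all genes was 3.20. Grhl1 was most like Hid1 (0.446) and Tnfrsf25 (0.47), Grhl2 like Arhgap32 (0.199) and Fuk (0.205), and Elf3 like Fam76a (0.229) and Whamm (0.236). Ovol2 was most like Sp6 (0.330) and Esrp1 (0.379), a splicing regulator of epithelia that is also on the list of linked genes. Esrp1 lay at 217 ± 29.7 CPM (SD, n = 10) with DOX, 278 ± 74.6 CPM (SD, n = 10) with DIP, where libraries 8 and 10 were highest at 419 and 403 CPM, and 36.0 ± 3.82 CPM (SD, n = 8) in 4T1.

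Ovol1 was most like Dnaaf5 (0.328) and Xntrpc (0.334). Grhl3 had no close match, with Cecr2 at 0.801 and the pseudogene Trp53-ps at 0.805, whose counts are uncertain because it shares reads with its parent gene. Elf5 and Spdef were too low for this measure. Among the members themselves, the difference was smallest between Elf3 and Grhl2, at 0.530, and greatest between Ehf and Grhl3, at 3.34. The measure is small for genes that vary little, and a gene with no variation would lie at 0.508 from Elf3. The value for Elf3 and Grhl2 alone thus does not show shared changes.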

How the data were processed

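Per the labels' protocols, RNA was purified with TRIzol, freed of rRNA and turned into sequencing libraries with a NEBNext Ultra II kit. Each of the 28 libraries has 1 deposited table of unnormalized counts, and all list the same 56748 Ensembl identifiers. Per the submitters' processing notes, fastp 0.23.2, featureCounts 2.0.1 and the mouse build GRCm39 were used by the authors. Neither an aligner nor a strand setting is given in the sources used here, so reads of a gene and of an antisense or overlapping gene cannot be told apart. Symbols came from GENCODE vM21 by identifier, which named 52073 identifiers and left 4675 without one. That release and the RefSeq promoters belong to GRCm38, another build than that of the counts, and served only for names, transcript lengths and promoter sequences. All 160 listed names, the 9 members among them, were matched by symbol.

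Libraries were grouped by the cell line and treatment labels and numbered by accession order inside each group. The numbers are names only. Libraries of a group all differed by more than counting noise (chi-square over degrees of freedom at least 17.7). Nothing says that libraries of a group came from separate cultures, so p-values measure only the spread between these libraries, which may be technical.

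Each pair of groups was fitted with edgeR 4.0.16 under R 4.3.3 (filterByExpr, TMM, glmQLFit with robust estimation, glmQLFTest, Benjamini-Hochberg adjustment over all genes tested). The standard error is the log2 fold change divided by the square root of F. For CPM, TMM factors came from 1 normalization of the 28 libraries, with a prior count of 2 for log2 CPM. Alternatives were RLE size factors, no filter, a filter of at least 1 CPM in 8 libraries, DESeq2 1.42.0, limma voom (limma 3.58.1), 1 fit of all 3 groups, a call rule of at least 2-fold, and leaving out libraries. The libraries doubted, DOX + DIP 8 and 10 and 4T1 1 and 2, were known from earlier work on these data. On simulated counts for the DOX + DIP comparison, 62 genes were changed 1.5-fold, 71 were changed 2-fold and 67 were changed 4-fold. The procedure recovered 22.6%, 60.6% and 92.5% of them, and made 5 false calls among 23829 genes. For 4T1 against HC11 DOX it recovered 20.5% of 78, 71.9% of 64 and 87.9% of 58. There 6 calls among 23875 genes were false. For 4T1 against DOX + DIP the shares were 11% of 82, 43.1% of 51 and 88.1% of 67. There 6 calls among 24132 genes were false. These are far smaller parts of all genes than the 45.5% to 73.8% called in the data. The behaviour of the procedure with that many genes changed was not tested. Only rises in the second group of each comparison were simulated, so the recovery of falls, such as those in 4T1, was not tested either.

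The members, gene lists and named genes were chosen with earlier results of these data known. Genes named beside the members are the 3 called members of a list with the largest change and a mean log2 CPM of at least 1, every factor of the epithelial-mesenchymal list, and the 2 genes most like each member. Cdh1, Krt5, Trp63, Per1, Dcn, Col1a1, Col1a2, Fabp4, Etv1, Erg, Ovol3 and the milk genes are named outside that rule, after their values were seen.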

Additional observations from a re-analysis of the deposited data

How the results depend on the processing

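The call rule of at least 2-fold is not among the values counted here for single genes. Under the other alternatives that tested them, the 9 lower members in 4T1 against HC11 DOX kept call and direction in 223 of 223 values. In 4T1 against DOX + DIP 204 of 207 values kept theirs, with Ovol1 gaining a call in the other 3. Elf3 did not meet the 2-fold rule, at 1.60-fold lower in 4T1 against HC11 DOX and 1.68-fold lower against DOX + DIP. With DIP, 220 of 242 values kept their call. The number of members called with DIP went from 3 to 5 without DOX + DIP libraries 8 and 10, and the number lower from 1 to 3. The number lower was 2 by limma voom and 0 both without a filter on low counts and with the filter of at least 1 CPM in 8 libraries, which does not test Spdef. Grhl3 turned from 0.33 to -1.68 without libraries 8 and 10. Leaving out 1 library at a time gave 2 to 4 members called with DIP, 2 to 3 higher and 0 to 1 lower. It gave 9 of 9 lower in 4T1 against DOX, and 7 of 8 lower against DOX + DIP, with 0 higher in both. Of the other named genes, 917 of 940 values with DIP, 861 of 865 in 4T1 against DOX and 853 of 883 against DOX + DIP kept their call, and 0 reversed. RLE size factors moved the median of all genes in 4T1 against DOX + DIP by -0.10 on the log2 scale, DESeq2 by -0.10 and the filter of at least 1 CPM in 8 libraries by -0.16. No paired analysis was possible because the labels carry no replicate numbers. Depth limits Spdef and, in 4T1, Elf5, which rest on few counts.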
